A study of Mus musculus with 2 samples.

Results

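The genes described here encode splicing factors and heterogeneous nuclear ribonucleoproteins (hnRNPs). They were chosen by gene name alone, and the naming rule took 80 of the 34456 rows of a deposited expression table, which were 77 of its 34295 genes. Poly(A) RNA had been sequenced from 2 cultures of primary cells of C57BL/6J mice, with 1 library each. The fibroblast library came from wild-type embryonic fibroblasts of E13.5 to E14.4 embryos, trypsin-digested without the head and the blood-rich organs, sorted as negative for the blood and macrophage markers CD45, CD11b and F4/80, and used between passage 4 and passage 7 in a DMEM medium with 10% serum; the labels give 100000 cells. The macrophage library came from wild-type bone marrow cells, with red cells lysed, kept for 6 days in an RPMI medium with 10% serum and 30% conditioned medium of L929 cells, a mouse fibroblast line that secretes the macrophage growth factor CSF1; the labels give 750000 cells. Whether either culture pooled several animals is not stated. The stated interest of the study was in growth factors and their receptors, and the splicing genes were measured alongside them.

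Splicing removes introns from pre-mRNA and is carried out by the spliceosome, whose small nuclear ribonucleoproteins (snRNPs) hold a ring of Sm proteins. U2AF and the SF3 complexes mark the 3′ end of the intron. SR proteins mostly promote, and hnRNPs often repress, the use of an exon. A further layer of regulators, the PTBP, MBNL, CELF, RBFOX, KHDRBS and ESRP families, is known for tissue-restricted forms that switch exons in brain, muscle, blood or epithelium.

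Levels are taken, from their range and totals, to be transcripts per 1000000 transcripts (TPM), a share of the library corrected for transcript length, so that levels of different genes can be set side by side. Differences are log2 ratios of TPM plus 1, fibroblast over macrophage. A gene past the 4-fold rule has a log2 ratio of 2 or more in size and 5 TPM or more in the higher library; the 2-fold rule asks for 1 or more. There were no replicates, so there is no error, test or p-value, each difference describes these libraries only, and cell type cannot be told apart from medium, cell number and preparation. A lower value may reflect fewer cells with the transcript or less of it per cell, which bulk RNA does not separate. The values summed to 999545 TPM in the fibroblast library and 999609 TPM in the macrophage library, with 12561 and 11429 genes at 1 TPM or more; read depth is unknown. All 6 fibroblast and all 6 macrophage markers passed the 4-fold rule toward the labelled cell type, with Sparc at 3888 TPM against 6.15 TPM and Lyz2 at 19.4 TPM against 12375 TPM in the fibroblast and macrophage libraries. The 9 proliferation genes listed summed to 1201 TPM in the fibroblasts and 1175 TPM in the macrophages, with Rrm2 past the 2-fold rule toward fibroblasts and Pcna toward macrophages.

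Splicing genes were abundant and mostly near equal in both cell types. Of the 77 genes, 70 were detected, with 1 TPM or more in either library, and 66 reached 5 TPM. The median over the 70 was 95.9 TPM in the fibroblasts and 73.8 TPM in the macrophages, against 17.7 and 14.5 TPM over the 13606 genes so detected in the table. Together the members held 0.947% of the TPM in the fibroblasts and 0.830% in macrophages. By the 4-fold rule 3 of the 66 were higher in fibroblasts and 1 in macrophages. Over the 11191 genes at 5 TPM or more this rule took 23.1% of genes, 14.3% toward fibroblasts and 8.77% toward macrophages. By the 2-fold rule 3 members lay toward fibroblasts, 3 lay toward macrophages and 60 passed in no direction, where the rule took 38.7% of all genes, 23.6% toward fibroblasts and 15.2% toward macrophages. A closeness limit chosen after the values were seen counted 50 of the 66 members (75.8%) within 1.5-fold between libraries, against 44.1% of all genes. The members' counts past either rule were thus a smaller share than that of all genes.

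The 6 members past the 2-fold rule were Rbfox2, Khdrbs3 and Snrpn toward fibroblasts, and Khdrbs2, Mbnl1 and Ptbp3 toward macrophages. Rbfox2, Khdrbs3, Snrpn and Khdrbs2 also passed the 4-fold rule. Of these 6, 5 belong to the tissue-regulator families, and 1, Snrpn, encodes an Sm protein. The 5 were among 11 tissue regulators at 5 TPM or more, a share near the 38.7% of all genes past this rule. None of the 32 SR, TRA2 and hnRNP genes at 5 TPM or more passed either rule. Across the 55 detected genes of the basal machinery, SR, TRA2 and hnRNP families, the rank correlation of fibroblast and macrophage TPM (Spearman's rho) was 0.94. Across the 15 detected tissue regulators, of which 11 reached 5 TPM, it was 0.67. With the higher minimum of 5 TPM it was 0.90 across the 66 members and 0.55 across the 11191 genes. It was not computed at that minimum for the tissue regulators alone. These are descriptions across genes, which share a library and its length correction.

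**Figure D1:**
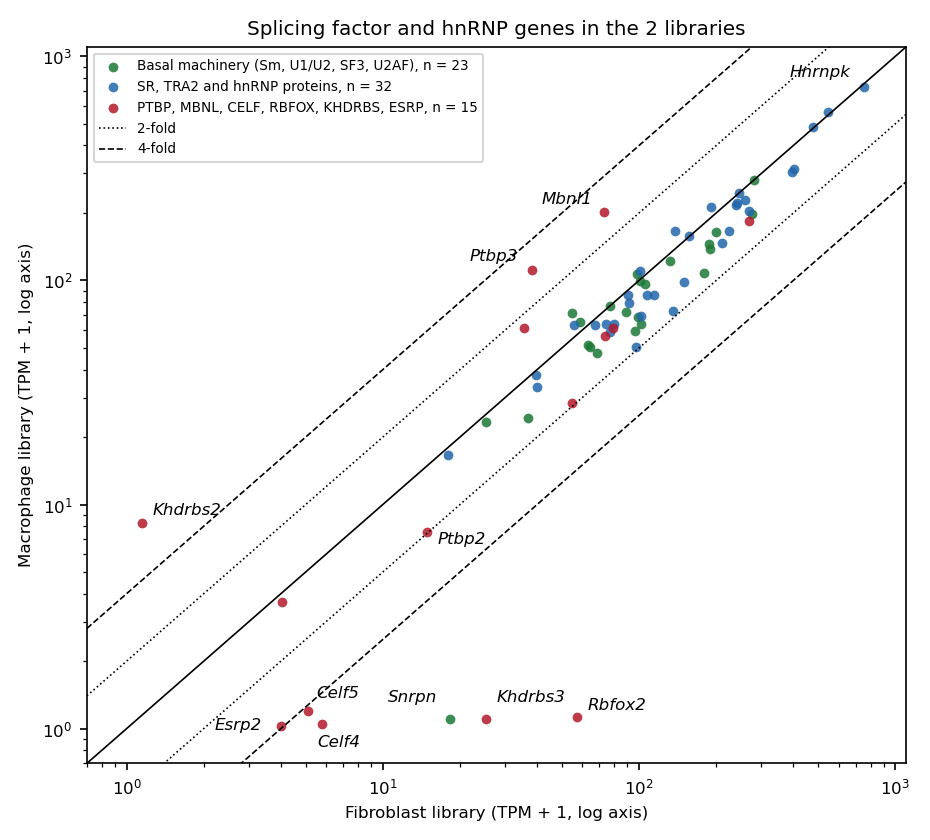
TPM plus 1 of the 70 detected members in the fibroblast library (x axis) and the macrophage library (y axis), both on log axes; each point is 1 gene, coloured by role, the solid line marks equality, and dotted and dashed lines mark 2-fold and 4-fold differences. Most points lie along the line, while Rbfox2, Khdrbs3 and Snrpn lie near the bottom and Khdrbs2 near the left edge.

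In the basal machinery, the Sm ring genes were modestly higher in fibroblasts. Snrpb, which encodes the SmB and SmB′ proteins, stood at 280.5 TPM in the fibroblasts and 279.5 TPM in the macrophages. Snrpe stood at 275.6 TPM in the fibroblasts against 196.5 TPM in the macrophages. The D proteins Snrpd3, Snrpd1 and Snrpd2 stood at 188, 179 and 95.3 TPM in the fibroblasts, against 137, 107 and 58.6 TPM in the macrophages. Snrpg stood at 100.4 TPM against 62.8 TPM, and Snrpf at 67.2 TPM against 46.4 TPM. All 8 ring genes lay above equality, with a median log2 ratio of 0.60, but only Snrpn passed the 2-fold rule. The median gene that reached 5 TPM in each library leaned toward fibroblasts by a log2 ratio of 0.18 without the added 1; after median-of-ratios scaling, which takes this shift out, the ring median was 0.42 and 7 of 8 lay above equality.

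The proteins that belong to U1 or U2 snRNP alone differed less. Snrpc, a U1 protein that helps in recognising the 5′ splice site, stood at 131 TPM in the fibroblasts and 121 TPM in the macrophages. Snrpa, which encodes an RNA-binding protein of U1, stood at 97.7 TPM against 68.0 TPM. The U2 proteins Snrpa1 and Snrpb2, which bind each other on U2 RNA, went in opposite directions at 87.7 against 71.3 TPM and 53.9 against 70.4 TPM. The 4 genes had a median log2 ratio of 0.20, and 0.02 after scaling.

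None of the SF3 and U2AF genes passed the 2-fold rule. Sf3b1, whose protein contacts the branch point, stood at 76.0 TPM in the fibroblasts and 75.6 TPM in the macrophages, and Sf3b2 at 99.7 against 98.2 TPM. Sf3b6 was the highest SF3 gene in fibroblasts, at 104.6 TPM against 95.6 TPM, and Sf3b4 the highest in macrophages, at 97.2 TPM in the fibroblasts against 105.4 TPM there. The largest SF3 difference was that of Sf3a1, at 35.9 TPM in the fibroblasts and 23.4 TPM in the macrophages, a log2 ratio of 0.59. The median of the 9 subunits was 0.12, and -0.06 after scaling, so that its direction depends on the scaling. The subunits of the U2AF dimer, U2af2, which binds the polypyrimidine tract, and U2af1, which reads the AG at the intron end, stood at 199 and 187 TPM in the fibroblasts and 164 and 145 TPM in the macrophages.

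Snrpn was the exception in the core. It encodes SmN, a form of SmB known from brain and heart, and is an imprinted gene read from the paternal copy. Snrpn stood at 17.3 TPM in the fibroblasts and 0.105 TPM in the macrophages, a log2 ratio of 4.05, while its near twin Snrpb was equal. Snrpn thus made up 5.82% of the Snrpb and Snrpn sum in fibroblasts and 0.0376% in macrophages. The Snrpn locus is chr7:59982495-60140219 on the minus strand (GRCm38, as are all positions here). Snurf, whose reading frame lies on the same transcripts, stood at 18.03 TPM in the fibroblasts and is listed at 0 for the macrophages. All of its 31-base words occur in annotated Snrpn transcripts, so a read of Snurf cannot be told from one of Snrpn and the level of each is uncertain; their sum was 35.3 TPM against 0.105 TPM, and with Snurf added the fibroblast share was 11.2%. Snrpn and Snrpb themselves can be told apart: of 2125 and 2021 distinct 31-base words in their transcripts, 2 were shared. The most similar 90 bases within a coding exon, exon 5 of Snrpn (chr7:59987459-59987548, minus strand) and exon 2 of Snrpb (chr2:130177062-130177151, minus strand), are shown to make that visible, with the 12 bases that differ in capitals.
Snrpn: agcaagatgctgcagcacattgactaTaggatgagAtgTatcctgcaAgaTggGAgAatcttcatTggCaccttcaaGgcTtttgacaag
Snrpb: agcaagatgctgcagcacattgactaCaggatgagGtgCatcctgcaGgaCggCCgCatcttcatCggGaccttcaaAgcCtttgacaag

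Among the SR proteins, which bind exonic enhancers through RNA recognition motifs and carry arginine and serine repeats, none of the 10 detected genes passed the 2-fold rule. The highest were Srsf2 at 245 TPM in the fibroblasts and 244 TPM in the macrophages, and Srsf3 at 237 against 217 TPM. Srsf5 stood at 223 TPM in the fibroblasts and 165 TPM in the macrophages. Srsf1, the founding member, was listed on 2 identical rows of 104.6 TPM in the fibroblasts and 73.2 TPM in the macrophages each, so that its level is 209 against 146 TPM if they are added. The largest ratio was that of Srsf6, at 149 TPM in the fibroblasts and 96.9 TPM in the macrophages, a log2 ratio of 0.61. Srsf12, which represses splicing in human cells, was below 1 TPM in both, at 0.264 TPM in the fibroblasts and 0.136 TPM in the macrophages. The median of the 10 was 0.35, and 0.17 after scaling.

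The SR-like TRA2 genes diverged from each other. Tra2a stood at 96.5 TPM in the fibroblasts and 49.2 TPM in the macrophages, just under the 2-fold rule at a log2 ratio of 0.96. Tra2b stood at 99.8 TPM in the fibroblasts and 109 TPM in the macrophages. The ratio of Tra2a to Tra2b, which does not depend on scaling, was 0.968 in fibroblasts and 0.452 in macrophages.

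The 20 hnRNP genes had the highest sum of all families, and none passed the 2-fold rule. Hnrnpk, which binds C-rich RNA, was the highest member in both libraries, at 757 TPM in the fibroblasts and 727 TPM in the macrophages. Hnrnpa2b1 came next, at 543 TPM in the fibroblasts and 562 TPM in the macrophages. Of the 20 genes 19 lay within 1.5-fold, and the remaining gene, Hnrnpa0, stood at 134 TPM in the fibroblasts and 72.0 TPM in the macrophages. The lowest was Hnrnph3, at 17.0 TPM in the fibroblasts and 15.6 TPM in the macrophages. The family summed to 4510 TPM in the fibroblasts and 4130 TPM in the macrophages. Its median log2 ratio of 0.12 turned to -0.06 after scaling.

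The hnRNP H and F genes, and the hnRNP L and LL genes, stood in similar proportions in both libraries. Shares were not computed for other hnRNP relatives. Hnrnpf, Hnrnph1, Hnrnph2 and Hnrnph3, which bind G-rich runs, held 56.0%, 31.4%, 10.6% and 2.00% of their sum in fibroblasts, and 61.9%, 26.0%, 10.1% and 2.01% in macrophages. Hnrnpl, which binds CA repeats, and Hnrnpll, known in T cells for switching exons of the CD45 gene, stood at 240.0 and 38.7 TPM in the fibroblasts and 219.8 and 36.9 TPM in the macrophages. Hnrnpll thus held 13.9% of the pair in fibroblasts and 14.39% in macrophages. Hnrnpu was listed on 2 identical rows of 128.7 TPM in the fibroblasts and 114.3 TPM in the macrophages each.

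**Figure D2:**
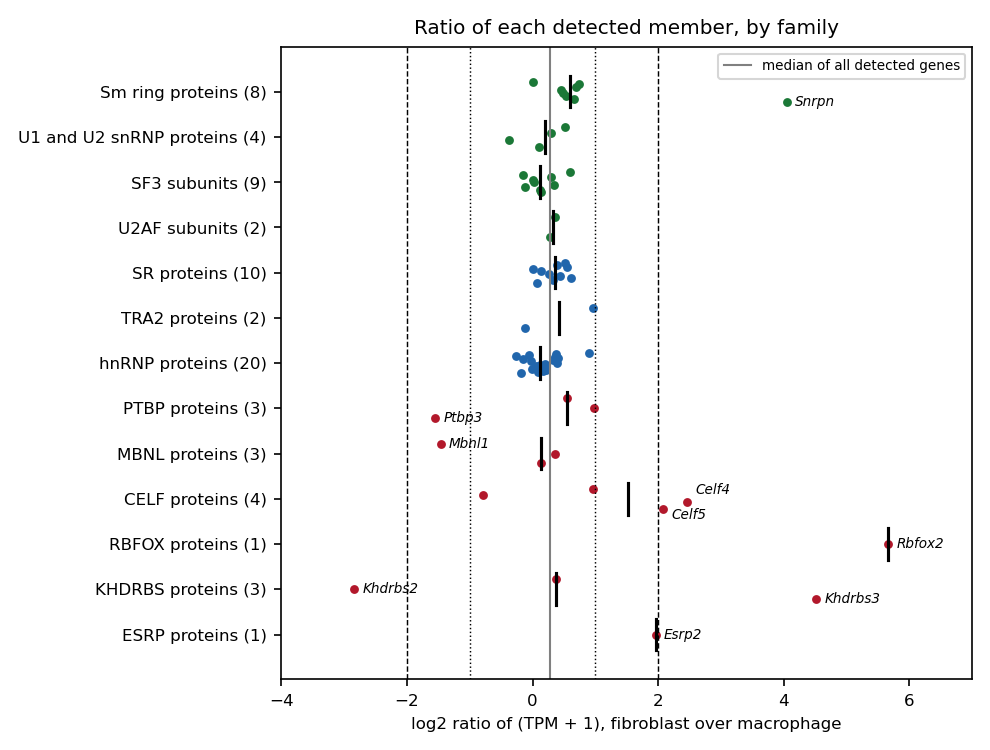
Log2 ratio of TPM plus 1, fibroblast over macrophage, of each detected member by family, with the number of detected genes in brackets. Each point is 1 gene, coloured by role (basal machinery, SR, TRA2 and hnRNP, tissue regulators), short black bars are family medians, the grey line is the median of all detected genes (0.28), and dotted and dashed lines mark 2-fold and 4-fold. Sm, SF3, U2AF, SR and hnRNP genes crowd between the dotted lines except Snrpn, while RBFOX, KHDRBS, CELF, PTBP and MBNL genes spread further; Celf4, Celf5 and Esrp2 lie under the 5 TPM minimum.

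RBFOX genes gave the widest difference of all members. Rbfox2, whose protein binds the RNA word UGCAUG and switches exons in muscle, brain and mesenchymal cells, stood at 56.4 TPM in the fibroblasts and 0.132 TPM in the macrophages, a log2 ratio of 5.66. The Rbfox2 locus is chr15:77078990-77307004, minus strand. Rbfox1, a brain and muscle form, stood at 0.433 TPM in the fibroblasts and is listed at 0 for the macrophages. Rbfox3, which encodes the neuronal marker NeuN, was listed at 0 in both. The fibroblast library thus held Rbfox2 as its 1 detected family member and the macrophage library held none at 1 TPM. Rbfox2 and Rbfox1 share no 31-base word, although their most similar 90 bases within a coding exon differ at only 7 bases, shown in capitals. These stretches lie in exon 6 of Rbfox2 (chr15:77105580-77105669, minus strand) and exon 5 of Rbfox1 (chr16:7292185-7292274, plus strand).
Rbfox2: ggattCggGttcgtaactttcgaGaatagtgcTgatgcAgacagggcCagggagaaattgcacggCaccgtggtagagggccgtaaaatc
Rbfox1: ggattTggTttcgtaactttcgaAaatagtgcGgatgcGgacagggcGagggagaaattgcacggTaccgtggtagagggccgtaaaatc

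The KHDRBS family split between the cell types by paralog. Khdrbs3, which encodes SLM2, stood at 24.3 TPM in the fibroblasts and 0.108 TPM in the macrophages, a log2 ratio of 4.51. Khdrbs2, which encodes SLM1, stood at 0.152 TPM in the fibroblasts and 7.23 TPM in the macrophages, a log2 ratio of -2.84. Both SLM proteins are best known from brain, where they switch neurexin exons. Khdrbs1, which encodes the widely used relative SAM68, stood at 72.4 TPM in the fibroblasts and 55.7 TPM in the macrophages. Khdrbs1 therefore made up 74.7% of the family in fibroblasts and 88.4% in macrophages, and the remainder was almost all Khdrbs3 (25.1%) in fibroblasts and almost all Khdrbs2 (11.5%) in macrophages. Khdrbs2 is a low gene near the minimum of the rule, and loses its 4-fold call if 10 TPM or an added 5 TPM is asked for. With a minimum of 10 TPM it loses its 2-fold call as well. The Khdrbs3 locus is chr15:68928420-69101211 and the Khdrbs2 locus chr1:32172714-32658568, both plus strand. No 31-base word is shared by the pair, and the most similar 90 bases within a coding exon differ at 19 bases, in capitals. These stretches lie in exon 4 of Khdrbs3 (chr15:69017379-69017468, plus strand) and exon 4 of Khdrbs2 (chr1:32414922-32415011, plus strand).
Khdrbs3: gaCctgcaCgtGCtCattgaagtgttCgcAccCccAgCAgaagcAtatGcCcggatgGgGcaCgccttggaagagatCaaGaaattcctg
Khdrbs2: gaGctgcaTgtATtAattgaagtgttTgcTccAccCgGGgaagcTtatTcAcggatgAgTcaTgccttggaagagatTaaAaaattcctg

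The PTBP family shifted in composition while its sum stayed level. Polypyrimidine tract binding proteins repress exons by binding CU-rich RNA, PTBP1 in most cells and PTBP2 mainly in neurons; PTBP3, first called ROD1, is known from blood cells. Ptbp1 stood at 268 TPM in the fibroblasts and 184 TPM in the macrophages. Ptbp3 stood at 37.2 TPM in the fibroblasts and 110.7 TPM in the macrophages, a log2 ratio of -1.55. Ptbp2 stood at 13.9 TPM in the fibroblasts and 6.56 TPM in the macrophages, just under the 2-fold rule at 0.98. With 0.1 added to the TPM in place of 1, its log2 ratio was 1.07, past that rule. The family summed to 319 TPM in the fibroblasts and 301 TPM in the macrophages. Ptbp3 held 11.7% of it in fibroblasts and 36.8% in macrophages, and the ratio of Ptbp1 to Ptbp3 was 7.21 in fibroblasts and 1.66 in macrophages. The Ptbp3 locus is chr4:59471868-59549364, minus strand. The most similar 90 bases within a coding exon of Ptbp3 and Ptbp1 differ at 13 bases, in capitals, and no 31-base word is shared. These stretches lie in exon 8 of Ptbp3 (chr4:59493270-59493359, minus strand) and exon 7 of Ptbp1 (chr10:79859782-79859871, plus strand).
Ptbp3: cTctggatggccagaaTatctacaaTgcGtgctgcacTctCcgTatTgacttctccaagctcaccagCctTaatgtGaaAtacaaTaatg
Ptbp1: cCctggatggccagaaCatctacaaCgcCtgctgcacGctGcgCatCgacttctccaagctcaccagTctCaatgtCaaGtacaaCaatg

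MBNL genes changed in both composition and sum. Muscleblind-like proteins promote adult exon patterns in muscle and are trapped by CUG repeats in myotonic dystrophy. Mbnl1 stood at 72.2 TPM in the fibroblasts and 201 TPM in the macrophages, a log2 ratio of -1.46. Mbnl2 stood at 77.9 TPM in the fibroblasts and 60.4 TPM in the macrophages, and Mbnl3 at 3.04 and 2.67 TPM. Fibroblasts thus held Mbnl1 and Mbnl2 at similar levels, with a ratio of 0.928, whereas in macrophages Mbnl1 was 3.32 times Mbnl2. The Mbnl1 locus is chr3:60472830-60629750, plus strand. Mbnl1 and Mbnl2 share no 31-base word, and their most similar 90 bases within a coding exon differ at 13 bases, in capitals. These stretches lie in exon 3 of Mbnl1 (chr3:60595597-60595686, plus strand) and exon 3 of Mbnl2 (chr14:120379153-120379242, plus strand).
Mbnl1: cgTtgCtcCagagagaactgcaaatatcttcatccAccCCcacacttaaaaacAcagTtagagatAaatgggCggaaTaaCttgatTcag
Mbnl2: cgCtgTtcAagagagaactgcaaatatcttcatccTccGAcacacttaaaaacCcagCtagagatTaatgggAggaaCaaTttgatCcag

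**Figure D3:**
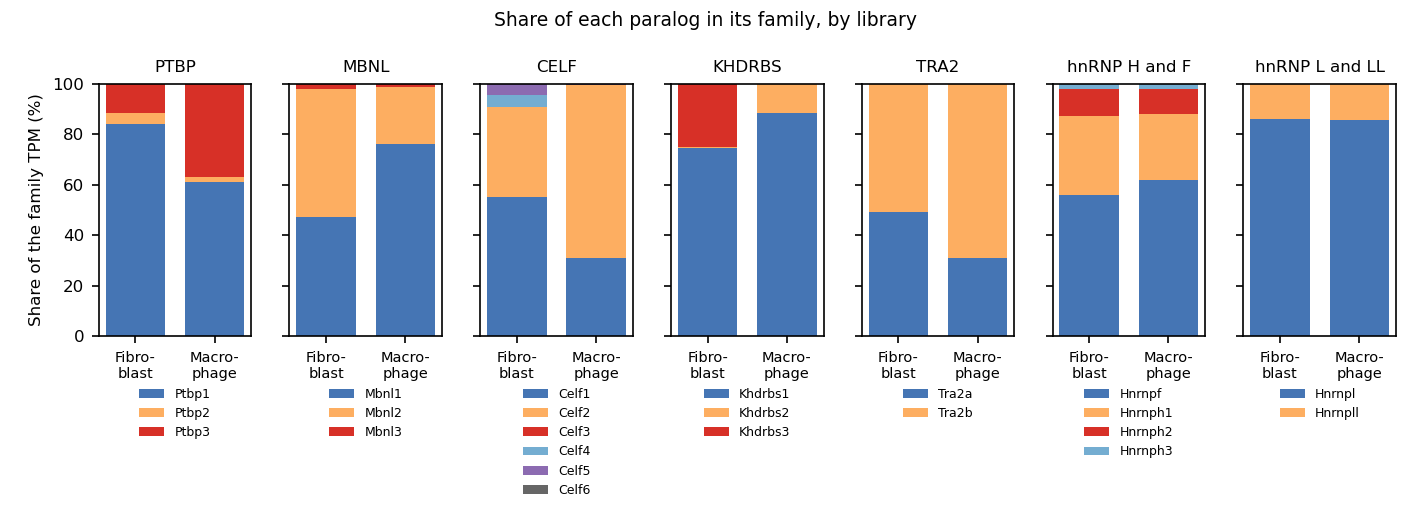
Share of each paralog in the summed TPM of its family (y axis, percent), with the fibroblast library left and the macrophage library right in each panel. The PTBP, MBNL, CELF, KHDRBS and TRA2 bars differ between libraries, with Ptbp3 at 11.7% and 36.8% and Mbnl1 at 47.2% and 76.1%, while the hnRNP H and F and hnRNP L and LL bars are alike.

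Celf1 and Celf2 leaned in opposite directions, both short of the 2-fold rule. CELF proteins often oppose MBNL proteins on the same exons. Celf1 was listed on 2 identical rows, which add up to 53.9 TPM in the fibroblasts and 27.3 TPM in the macrophages, a log2 ratio of 0.96. Celf2 stood at 34.7 TPM in the fibroblasts and 60.4 TPM in the macrophages, a log2 ratio of -0.78. The ratio of Celf1 to Celf2 was 1.56 in fibroblasts and 0.451 in macrophages when the Celf1 rows are added. Which of them leads in fibroblasts depends on those rows. With the rows added Celf1 held 55.3% and Celf2 35.6% of the family in fibroblasts, and 30.9% and 68.5% in macrophages. With 1 row Celf1 held 38.2% and Celf2 49.2% in fibroblasts, and 18.3% and 81.0% in macrophages, so that Celf2 led in both. The other CELF genes are mainly neuronal. Celf4 and Celf5 stood at 4.77 and 4.10 TPM in the fibroblasts, under the 5 TPM minimum, and at 0.0496 and 0.202 TPM in the macrophages. With a minimum of 1 TPM both would pass the 4-fold rule, and 5 members rather than 3 would lie toward fibroblasts by it. Celf3 was listed at 0 in fibroblasts and stood at 0.273 TPM in the macrophages, and Celf6 was listed at 0 in both.

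The epithelial regulators were low. Esrp1 was listed at 0 in both libraries, and Esrp2 stood at 3.01 TPM in the fibroblasts and 0.0280 TPM in the macrophages. Beside this, of 6 other epithelial marker genes Krt19 alone passed the rules, at 23.2 TPM in the fibroblasts and listed at 0 in macrophages, while Epcam and Cdh1 were below 0.3 TPM in both; the list summed to 24.6 TPM in the fibroblasts and 0.703 TPM in the macrophages. Of 7 neuronal marker genes besides Rbfox3, 3 passed the 4-fold rule toward fibroblasts: Stmn2 at 39.7 TPM against 0, Map2 at 35.1 against 0.169 TPM and Tubb3 at 20.8 against 0.163 TPM. The synaptic genes Snap25 and Syt1 stood at 0 and 0.296 TPM in the fibroblasts and were listed at 0 in macrophages, the synaptic gene Syp stood at 0.145 TPM in the fibroblasts and 1.77 TPM in the macrophages, and the list summed to 96.9 TPM in the fibroblasts and 2.10 TPM in the macrophages. All 7 muscle markers were below 1 TPM in both. The part of such cells in the Rbfox2, Khdrbs3, Celf4, Celf5, Esrp2 and Snrpn values was not tested.

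Of the 7 members below 1 TPM in both libraries, Celf6, Esrp1, Rbfox3 and Snrpert were listed at 0 in both. Snrpert is annotated as a processed pseudogene of 1 exon on chromosome 2 and is a member by its name only. The other 3 were Celf3, Rbfox1 and Srsf12. A value of 0 in such a table can be a failed estimate, so no fold is given against it.

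For several members part of the reads may be counted under processed pseudogenes, which are copies of the spliced transcript elsewhere in the genome. Near-identical genes were sought in the GENCODE M21 transcripts, outside the naming rule and only where a deposited value exists. This leaves out Snrpert, with 71.5% of its 31-base words in Snrpe. Of the members, 18 had at least 1 such gene with 50% or more of its words inside the member, and 40 such genes were found. For 14 members their sum was below the member in both libraries, and for 4 it exceeded the member in at least 1. The pseudogene Gm5641 stood at 406 TPM in the fibroblasts and 408 TPM in the macrophages, above its parent gene Hnrnpa3 at 138 and 166 TPM. Gm13092 stood at 199 TPM in the fibroblasts and 122.6 TPM in the macrophages, above its parent Snrpf at 67.2 and 46.4 TPM. Gm8186 stood at 179 TPM in the fibroblasts and 144 TPM in the macrophages, above its parent Snrpg at 100.4 and 62.8 TPM. The fourth is Snrpn with Snurf. The levels of these members, and of Hnrnpa1, Hnrnpc and Srsf3 to a lesser degree, are therefore uncertain. With the copies added, the log2 ratio was -0.08 in place of -0.27 for Hnrnpa3, 0.65 in place of 0.53 for Snrpf and 0.43 in place of 0.67 for Snrpg, and no count of members past either rule was altered.

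**Figure D4:**
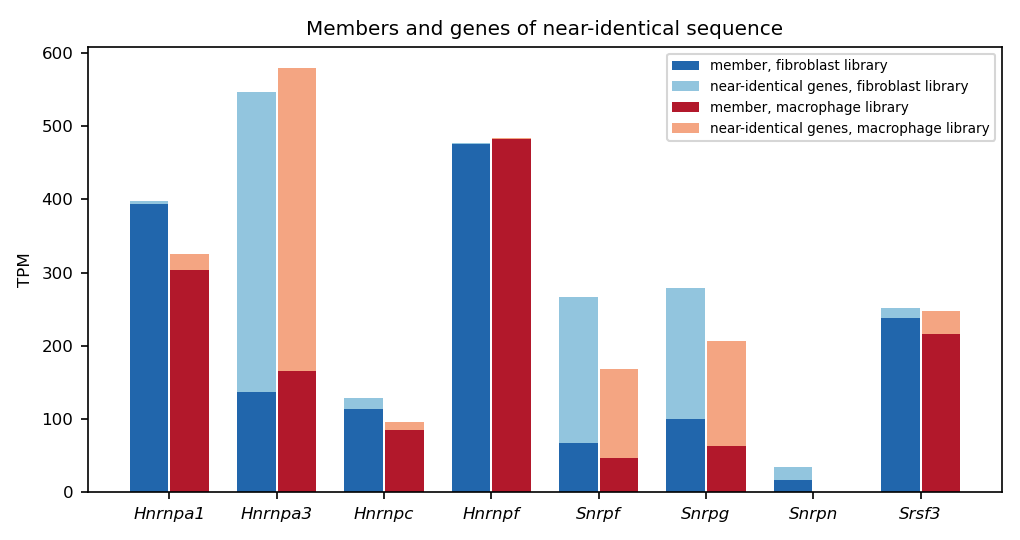
TPM (y axis, linear from 0) of 8 members with near-identical genes at 1 TPM or more, dark for the member and light for the sum of those genes stacked on it; the left bar of each pair is the fibroblast library and the right bar the macrophage library. For Hnrnpa3, Snrpf and Snrpg the light part is taller than the dark part in both libraries.

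Gene totals also join productive and unproductive transcripts. SR and hnRNP genes are known to limit themselves by splicing in poison exons, which send the transcript to nonsense-mediated decay. Of the 66 members at 5 TPM or more, 34 (51.5%) had at least 1 transcript annotated for such decay in GENCODE M21, against 3233 of 10788 protein-coding genes at that level (30.0%). Among SR genes it was 9 of 10, and among hnRNP genes 10 of 20. Members also had more annotated transcripts, with a median of 7 against 5, and a gene with more transcripts has more chances to hold one of this class. The deposited totals do not separate these classes, so equal totals do not show equal protein-coding transcript.

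Promoter windows were compared by their CG content. In windows from 250 bases before to 50 bases after the start (RefSeq, GRCm38.p6), 67 of the 78 windows of members at 5 TPM or more (85.9%) held 10 or more CG dinucleotides. For all genes at that level the share was 80.1% of 11104 windows, and for all 32851 windows it was 43.5%; 94.6% of all windows held at least 1. The sequence TATAAA, on either strand, was found in 9 of the 78 windows (11.5%) against 6.92% of the windows of all genes at 5 TPM or more. Neither motif can overlap the other. Of the 6 members past the 2-fold rule, Snrpn, Khdrbs2 and Mbnl1 had windows in the table used here, which are shown with CG in capitals; Rbfox2, Khdrbs3 and Ptbp3 were not analysed here. Of the 4 Snrpn windows, the one with the most CG (chr7:60005150-60005449, minus strand), which is shown, held 7 and the others 4, 3 and 2. The Khdrbs2 window (chr1:32172472-32172771, plus strand) held 26. Of the 2 Mbnl1 windows, the downstream one (chr3:60500929-60501228, plus strand), which is shown, held 41 and the upstream one 2. TATAAA, on either strand, lay in that upstream Mbnl1 window and in the Snrpn window with 4 CG, neither of which is shown. The windows shown held none. These counts are descriptions of the letters, and methylation was not measured.
Snrpn: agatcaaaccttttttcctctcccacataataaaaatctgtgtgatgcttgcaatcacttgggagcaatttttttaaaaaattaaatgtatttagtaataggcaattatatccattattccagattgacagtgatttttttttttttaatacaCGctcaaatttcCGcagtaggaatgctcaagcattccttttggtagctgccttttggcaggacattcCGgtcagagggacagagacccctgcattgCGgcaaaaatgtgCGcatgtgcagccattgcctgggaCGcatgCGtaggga
Khdrbs2: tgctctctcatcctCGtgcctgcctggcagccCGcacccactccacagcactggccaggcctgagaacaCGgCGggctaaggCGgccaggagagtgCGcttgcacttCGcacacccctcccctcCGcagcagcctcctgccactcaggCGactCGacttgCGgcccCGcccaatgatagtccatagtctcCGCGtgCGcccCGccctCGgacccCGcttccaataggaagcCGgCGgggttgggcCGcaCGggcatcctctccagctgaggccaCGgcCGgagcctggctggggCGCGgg
Mbnl1: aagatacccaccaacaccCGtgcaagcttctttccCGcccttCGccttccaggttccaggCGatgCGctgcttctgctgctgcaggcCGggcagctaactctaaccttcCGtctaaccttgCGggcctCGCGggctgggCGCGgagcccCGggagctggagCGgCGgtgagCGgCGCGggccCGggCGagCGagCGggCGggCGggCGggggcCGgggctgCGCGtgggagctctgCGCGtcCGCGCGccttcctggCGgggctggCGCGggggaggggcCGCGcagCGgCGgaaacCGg

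Other genes of splicing, outside the naming rule, also mostly did not pass the 2-fold rule. Closeness within 1.5-fold was not counted for them. In 8 lists of other splicing and 3′ end genes, 245 genes were in the table and 233 reached 5 TPM. By the 2-fold rule 17 lay toward fibroblasts, 5 lay toward macrophages and 211 passed in no direction, set against 23.6% and 15.2% of all genes. Their detected genes had a median log2 ratio of 0.26, against 0.28 over all detected genes of the table. None of the 18 spliceosome helicases passed the rule, with Ddx5 highest at 454 TPM in the fibroblasts and 442 TPM in the macrophages and Ddx39b, an export and splicing helicase, at 161 against 145 TPM. None of the 19 tested kinases and phosphatases of SR proteins passed, with the phosphatase genes Ppp1ca at 465 against 424 TPM and Ppp1cb at 164 against 91.1 TPM. Of the 50 tri-snRNP and Prp19 complex genes 1 passed, Prpf40b at 16.4 TPM in the fibroblasts and 5.28 TPM in the macrophages.

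A few genes of the snRNP assembly and exon junction lists were higher in fibroblasts. In each list here the share past the 2-fold rule was smaller than that of all genes, 23.6% toward fibroblasts and 15.2% toward macrophages. Gemin4 and Gemin7, subunits of the SMN complex that loads Sm rings, stood at 14.42 and 137 TPM in the fibroblasts and 1.27 and 67.0 TPM in the macrophages, the 2 of 30 genes that passed; Gemin7 did not pass after scaling. Of 26 exon junction and decay genes 2 passed, Sap18 at 52.8 TPM against 17.4 TPM and Magohb at 39.7 TPM against 13.4 TPM. Of 22 genes of 3′ end processing 2 passed, the poly(A) binding protein genes Pabpn1 at 177 TPM against 85.8 TPM and Pabpc4 at 134.6 TPM against 45.5 TPM; Pabpn1 did not pass after scaling. Of 11 tested minor spliceosome genes 1 passed in the opposite direction, Armc7 at 6.51 TPM in the fibroblasts and 20.0 TPM in the macrophages, and the median of the list was -0.13.

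Of the 61 tested genes in the list of other splicing regulators, 10 were higher in fibroblasts and 4 in macrophages by the 2-fold rule, both a smaller share than the 23.6% and 15.2% of all genes. Toward fibroblasts the highest were Ybx3, a cold-shock RNA-binding protein, at 279 TPM against 93.9 TPM, Pcbp4, a poly(C) binding protein, at 169.9 against 8.37 TPM, Rbms2 at 108 against 23.3 TPM and Tia1, a U1-recruiting factor, at 29.81 against 13.495 TPM; Tia1 did not pass after scaling. Toward macrophages they were Cpeb2 at 10.2 TPM in the fibroblasts against 41.7 TPM in the macrophages, Cpeb4 at 11.6 against 33.8 TPM, Rbm47 at 0.692 against 27.3 TPM and Rbm38 at 6.69 against 18.8 TPM. CPEB proteins are regulators of poly(A) tails and translation rather than of splicing.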

How the data were processed

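Per the submitters' processing notes, the authors used kallisto 0.43.1 and the build GRCm38; per the labels' protocols, a strand-keeping mRNA kit was used and 76 bp were read from each fragment end. The deposited values are taken as TPM because each column sums to nearly 1e+06 and no header names a unit. How transcripts were joined into genes, and from which set, is not given in the sources used here. TPM keep no depth, so no interval or floor is given. Rows sharing a symbol were added (158 symbols, of which 129, Srsf1, Hnrnpu and Celf1 among them, had identical rows); the sum is double the true value where such rows are copies. Ratios used a pseudocount of 1, a 5 TPM minimum, and median-of-ratios scaling as an alternative. The call rule was run on simulated data, with changes placed only in well-expressed genes. The noise there was set by hand, since no replicates exist to measure it. The run therefore checks how the rule was coded, and not whether calls, such as that of the low gene Khdrbs2, would recur.

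The lists, and the naming rule that took the members, were chosen with earlier results of these data known. Members named are those past the 2-fold rule, the 2 highest of each family in each library, those under 1 TPM in both, and all of the small families; of each other list, up to 4 per direction past the 2-fold rule, or else the 2 highest. Others named were chosen after their values were seen. Words of 31 bases, 90-base windows and decay classes come from GENCODE M21 (all 77 members matched), promoters from RefSeq (GRCm38.p6; 62 members matched). The 90-base windows were compared without gaps, within single coding exons of the principal transcript picked for each gene. Python 3.11.15, pandas 2.3.3 and numpy 2.4.6 were used.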

Additional observations from a re-analysis of the deposited data

How the results depend on the processing

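Each of the 6 members past the 2-fold rule kept its direction under each alternative that recomputed it, with log2 ratios from 3.58 to 7.93 for Rbfox2, 2.52 to 6.88 for Khdrbs3, 2.13 to 6.41 for Snrpn, -4.86 to -1.25 for Khdrbs2, -1.64 to -1.41 for Mbnl1 and -1.73 to -1.46 for Ptbp3. Values with no replicates were taken as moved where they differed by 1.5 times. Members higher in fibroblasts by the 4-fold rule numbered 5 in place of 3 with a 1 TPM minimum, with no minimum, or rescaled without mitochondrial and the 50 highest genes; by the 2-fold rule they numbered 6, 6 and 5. A pseudocount of 0.1 gave 4 members toward fibroblasts by the 2-fold rule in place of 3, with Ptbp2 added. Members higher in macrophages by 4-fold numbered 0 in place of 1 with a pseudocount of 5 or a 10 TPM minimum. By the 2-fold rule they numbered 2 in place of 3 with a 10 TPM minimum, with Khdrbs2 lost. Over all genes, a pseudocount of 5 left 896 and 652 genes past 4-fold in place of 1602 and 981.

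Small family medians and sums changed sign with scaling. With median-of-ratios scaling the medians were -0.056 for hnRNP and -0.058 for SF3 genes, and the log2 ratios of sums -0.038 for CELF, -0.055 for hnRNP, -0.097 for PTBP, -0.095 for SF3 and -0.021 for U1 and U2 genes. With the rescaling they were -0.0080 and -0.010 for the hnRNP and SF3 medians, and -0.0053, -0.047 and -0.046 for the hnRNP, PTBP and SF3 sums. The CELF sum was -0.081 with the highest row alone, which also gave Celf1 38.2% of the fibroblast sum in place of 55.3%, below Celf2 at 49.2%, and 18.3% of the macrophage sum in place of 30.9%. The CELF median of 1.52 was 2.39 and 0.84 with pseudocounts of 0.1 and 5, and 0.087 with a 10 TPM minimum, where fewer genes count; that minimum gave 2.44 for KHDRBS and -0.55 for MBNL. Under median-of-ratios scaling 1 snRNP assembly gene in place of 2, 1 gene of 3′ end processing in place of 2 and 2 minor spliceosome genes in place of 1 passed the 2-fold rule: Gemin7 and Pabpn1 were lost, and so were Tia1 and Rbm4b of the other regulators, while Snrnp35 and Safb2 passed toward macrophages. The cause was not tested where none is named. Adding the near-identical genes was chosen after seeing the data; it gave Snrpn 11.2% in place of 5.82% of the fibroblast sum with Snrpb and moved no other paralog share by 1.5 times. Rows whose description is a member's own name with the word pseudogene were found for Tra2b and Snrpe, both listed at 0, so that adding them moved no share. No paired analysis was possible because each group has 1 library.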

Other observations

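Some RNA-binding protein genes outside the naming rule, chosen here after their values were seen, were also higher in the fibroblast library. They belong to the list of other splicing regulators. By the 2-fold rule, 10 of its 61 tested genes lay toward fibroblasts and 4 toward macrophages. Both were smaller shares than the 23.6% and 15.2% of all genes. Rbms3, an RNA-binding protein gene of mesenchymal tissue, stood at 21.0 TPM in the fibroblasts and is listed at 0 for the macrophages. Rbpms2, which is known from smooth muscle, stood at 20.8 TPM in the fibroblasts and 0.204 TPM in the macrophages, and its relative Rbpms, which passed the 2-fold but not the 4-fold rule, at 13.9 against 4.99 TPM. Pcbp3 stood at 9.15 TPM in the fibroblasts and 0.695 TPM in the macrophages.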
